A study of Mus musculus with 21 samples.

Results

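Leu-CAA tRNAs are the leucine tRNAs whose anticodon is CAA, and they were taken as every row whose name starts with Leu-CAA in the deposited tRNA count tables of mouse cerebrum and cerebellum. There were 4 such isodecoders, tRNAs that share an anticodon but differ elsewhere in sequence, out of 209 tRNAs in the cerebrum table and 208 in the cerebellum table: Leu-CAA-1-1, Leu-CAA-2-1, Leu-CAA-3-1 and Leu-CAA-4-1. All 4 passed the filter on low counts in both tissues. The libraries came from a mouse model of Polr3-related disease, and the comparison asked how a mutation in Polr3a, the gene of the largest RNA polymerase III subunit, altered the tRNA pool. There were 5 Polr3a mutant and 6 wildtype libraries of cerebellum, and 4 Polr3a mutant and 6 wildtype libraries of cerebrum. All 21 were from C57BL/6J mice of both sexes fed ad libitum, in both genotypes after tamoxifen-induced recombination at postnatal day 28, with tissue frozen at day 42. Neither the promoter of the recombinase nor the exact Polr3a allele is stated in the labels. Nothing in the labels ties a library to an animal of its own, and p-values therefore cover only library-to-library spread, which may be technical. Polr3a mRNA is not part of a tRNA library, which leaves the genotype unchecked here. In whole tissue, fewer cells of a type and less RNA per cell cannot be told apart.

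Nuclear tRNA genes are transcribed by RNA polymerase III from promoter elements inside the gene. tRNA-Leu-CAA reads the leucine codon UUG. Its genes are among the few tRNA genes with an intron, which the TSEN endonuclease cuts out before the exons are ligated, and in human cells the methyltransferase NSUN2 modifies the wobble cytidine of the intron-holding precursor. Like serine tRNAs, leucine tRNAs have a long variable arm.

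The RefSeq annotation of GRCm38.p6, the assembly also called mm10, lists 4 Leu-CAA genes. It numbers them in its own way, and these numbers could not be paired with the isodecoder names of the count tables. n-TLcaa3 lies at chr11:58302474-58302580, 226 bp from the glutamate tRNA gene n-TEctc10. The other genes lie on chromosome 13: n-TLcaa4 at chr13:21172837-21172942, n-TLcaa1 at chr13:21200204-21200308 and n-TLcaa2 at chr13:21914838-21914943. Within 50000 bp, n-TLcaa3 had 1 other tRNA gene, against 11, 15 and 17 for n-TLcaa4, n-TLcaa1 and n-TLcaa2. The nearest protein-coding genes were Zfp692 for n-TLcaa3 at 4489 bp, Trim27 for n-TLcaa4 at 6503 bp and for n-TLcaa1 at 5480 bp, and Zfp184 for n-TLcaa2 at 30151 bp. None of the 4 overlapped a gene of the GENCODE M21 annotation. The Leu-CAA genes are 105 to 107 bp long, while the 21 other nuclear leucine tRNA genes of the annotation are 82 to 83 bp and the 10 tyrosine GTA genes, which also hold introns, are 86 to 93 bp.

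Cerebrum libraries held 4830413 to 7588902 counts in mutants and 4353056 to 6171896 in wildtype. Cerebellum libraries held 2146717 to 7110313 counts in mutants and 1612754 to 5323340 in wildtype, and they fell into a deep class of mutants 2 to 5 with wildtype 5 and a shallow class of mutant 1 with the 5 other wildtype libraries. Depth and genotype were thus nearly the same split in cerebellum. Mitochondrial tRNAs, which RNA polymerase III does not make, took 12.8% to 15.7% of counts in cerebrum mutants and 10.4% to 11.7% in cerebrum wildtype, and 13.96% to 21.2% in cerebellum mutants and 12.5% to 14.4% in cerebellum wildtype. The sources used here do not state how a read matching several similar isodecoders was counted, so a split between Leu-CAA isodecoders is less certain than their sum.

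In the cerebrum of Polr3a mutants, Leu-CAA-4-1 fell by 1.13 on the log2 scale relative to wildtype, while the change of the other isodecoders and of the Leu-CAA sum did not pass the test. Leu-CAA-4-1 is the least abundant of the 4. Its raw counts were 312, 470, 314 and 337 in mutants 1 to 4, against 488 to 908 in the 6 wildtype libraries. After TMM scaling, which sets libraries to a common size by their middle tRNAs, it stood at 49.1, 71.2, 58.0 and 65.9 CPM (counts scaled to a common library total) in mutants 1 to 4. The wildtype libraries had 105 at the lowest, a median of 122 and 191 CPM at the highest. Every mutant library lay below every wildtype library, and the share of all 208 tRNAs with such separation was not counted. Means were 61.0 ± 9.65 CPM in mutants (SD, n = 4) and 134 ± 33.9 CPM in wildtype (SD, n = 6), which gave −1.13 ± 0.19 (SE) in edgeR's quasi-likelihood test (adjusted p = 0.000187 by Benjamini-Hochberg over all tRNAs). Of all 208 tRNAs tested in cerebrum, 19.7% passed, 8.17% as higher and 11.5% as lower in mutants. Leu-CAA-4-1 had the 4th lowest fold change of 186 nuclear tRNAs, after Met-CAT-4-1, Ala-AGC-1-1 and Trp-CCA-6-1, which are named here after their values were seen. The call held without each of the 10 libraries in turn, with log2 fold changes of −1.22 to −0.995 and adjusted p-values of 0.000114 to 0.00179.

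Leu-CAA-1-1 had 309, 398, 416 and 405 CPM in cerebrum mutants 1 to 4, against 284 at the lowest, a median of 337 and 423 at the highest in wildtype. The groups overlapped, and the log2 fold change of 0.16 ± 0.14 (SE) did not pass (edgeR adjusted p = 0.443). Leu-CAA-2-1, the most abundant isodecoder, had 2064, 2490, 2649 and 2719 CPM in mutants 1 to 4 and 1926 to 2353 CPM in wildtype with a median of 2113. Mutants 2, 3 and 4 lay above all wildtype libraries and mutant 1 among them. Its log2 fold change was 0.23 ± 0.12 (SE, edgeR adjusted p = 0.192), and without mutant 1 it was 0.35 with an adjusted p of 0.0346. That was the only 1 of 10 fits with a library left out to pass, and 0 of 12 other settings passed. Leu-CAA-3-1 had 1892, 2325, 2426 and 2477 CPM in mutants 1 to 4, against 1775 to 2395 CPM in wildtype with a median of 2173, and its log2 change was 0.11 ± 0.12 (SE; edgeR adjusted p = 0.583). Mutant 1 was the lowest cerebrum mutant for all 4 isodecoders.

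**Figure D1:**
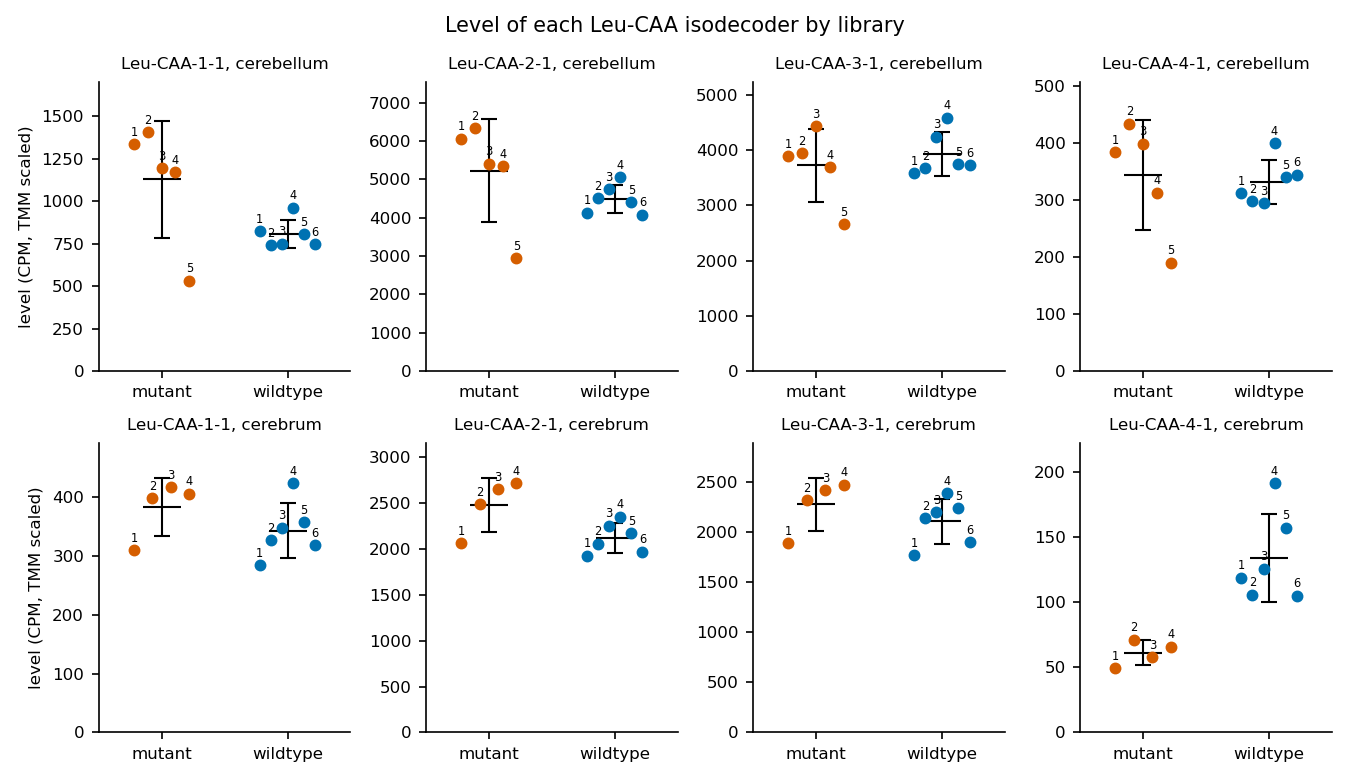
Level of each Leu-CAA isodecoder in CPM after TMM scaling within a tissue, 1 point per library with its replicate number, mutant left of wildtype; bars give the mean and SD. In cerebrum all 4 mutants sit at 49.1 to 71.2 CPM for Leu-CAA-4-1, below the wildtype libraries at 105 to 191 CPM, and in cerebellum mutant 5 is the lowest library for all 4 isodecoders.

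In the cerebellum none of the 4 isodecoders passed the test between genotypes (edgeR, with 2.48% of all 202 tRNAs passing, and 40 of them under an unadjusted p of 0.05). Leu-CAA-4-1 had 384, 434, 399, 313 and 190 CPM in mutants 1 to 5, against 295 at the lowest, a median of 326 and 399 at the highest in wildtype. Mutant 5 lay below every wildtype library and mutant 2 above every one. Means were 344 ± 96.8 CPM in mutants (SD, n = 5) and 331 ± 39.1 CPM in wildtype (SD, n = 6), and the log2 change was 0.05 ± 0.18 (SE; edgeR adjusted p = 0.922).

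Leu-CAA-1-1 had 1336, 1407, 1197, 1170 and 532 CPM in cerebellum mutants 1 to 5, against 742 to 963 CPM in wildtype with a median of 779. Mutants 1 to 4 lay above every wildtype library and mutant 5 below every one. With all libraries the log2 fold change was 0.48 ± 0.19 (SE; edgeR unadjusted p = 0.0212, adjusted p = 0.159). Only without mutant 5, of the 11 libraries left out in turn, did it pass. It was then 0.69 with an edgeR adjusted p of 0.0014, in a fit where 16.2% of 204 tRNAs passed. Within the shallow class, mutant 1 against 5 wildtype libraries, it was 0.75, and within the deep class, 4 mutants against 1 wildtype library, it was 0.40. These within-class values are given with no test, since each class has an arm of 1 library and the classes were set after seeing the data.

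Leu-CAA-2-1 had 6062, 6342, 5408, 5346 and 2943 CPM in cerebellum mutants 1 to 5 and 4078 to 5050 CPM in wildtype with a median of 4451. Here too mutants 1 to 4 lay above and mutant 5 below every wildtype library. The log2 fold change was 0.22 ± 0.16 (SE, edgeR adjusted p = 0.499) with all libraries and 0.39 without mutant 5 (adjusted p = 0.0173). No other of the 11 libraries, left out in turn, gave a call. Leu-CAA-3-1 had 3897, 3952, 4439, 3689 and 2658 CPM in mutants 1 to 5, against 3588 to 4588 CPM in wildtype with a median of 3741. Mutants 1 to 4 lay within the wildtype range, and the log2 fold change was −0.08 ± 0.13 (SE; edgeR adjusted p = 0.877). Cerebellum mutant 5 was also the deepest cerebellum library, and its mitochondrial share was 19.3%, second to mutant 1 at 21.2%; the part of depth or of that share in its Leu-CAA levels was not tested.

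**Figure D2:**
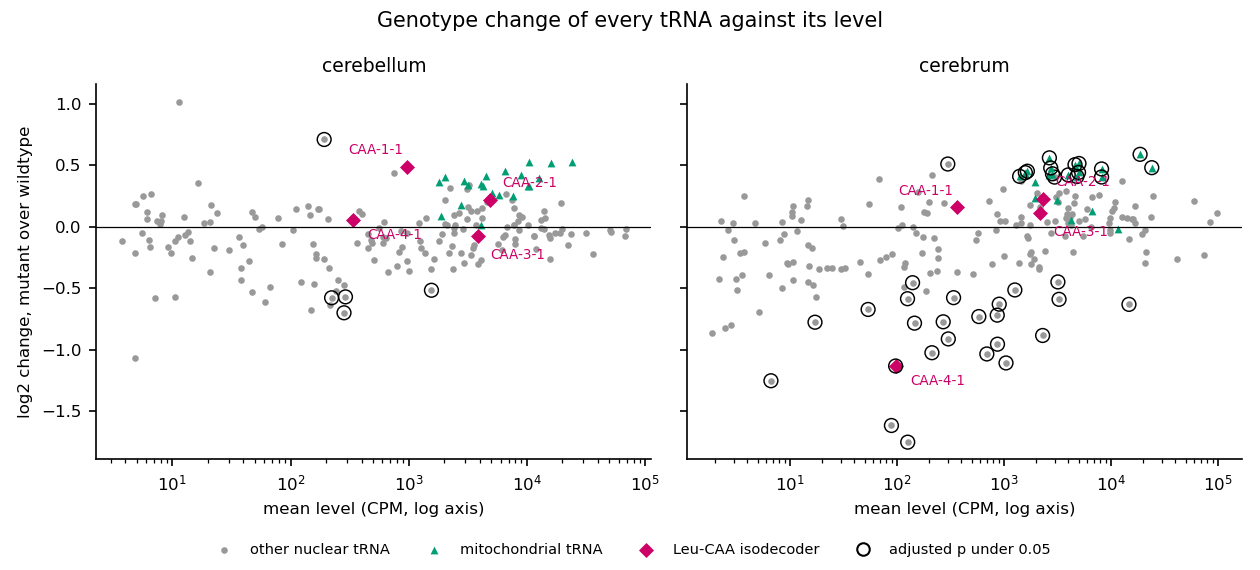
Log2 fold change, mutant over wildtype, of every tRNA tested against its mean level in CPM on a log axis, in cerebellum (left) and cerebrum (right); rings mark adjusted p under 0.05. Among Leu-CAA isodecoders only Leu-CAA-4-1 in cerebrum is ringed, at −1.13.

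The summed Leu-CAA level did not pass between genotypes in either tissue. In cerebrum the sum, scaled in its own fit over anticodons, was 3978, 5167, 5384 and 5673 CPM in mutants 1 to 4, against 4048 to 5636 CPM in wildtype with a median of 4863. The groups overlapped, and the log2 change was 0.07 ± 0.13 (SE; edgeR adjusted p = 0.898), where 11.1% of 72 anticodon sums passed. In cerebellum it was 11175, 12253, 11464, 10462 and 5827 CPM in mutants 1 to 5, against 9176 to 11658 CPM in wildtype with a median of 9368. The log2 fold change was 0.07 ± 0.15 (SE; edgeR adjusted p = 0.798). There 0% of 71 anticodon sums passed, and 17 had an unadjusted p under 0.05. Leu-CAA made up 15.7% ± 1.001 of nuclear leucine tRNA counts in cerebrum mutants (SD, n = 4) and 14.1% ± 0.874 in cerebrum wildtype (SD, n = 6). The range was 14.91% to 17.14% in these mutants and 12.93% to 14.90% in wildtype. This share also depends on the other leucine tRNAs, and its difference between genotypes was not tested. In cerebellum it made up 21.3% ± 2.82 in mutants (SD, n = 5) and 21.1% ± 1.23 in wildtype (SD, n = 6).

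Shares within the Leu-CAA family do not depend on how libraries are scaled to each other. In cerebrum Leu-CAA-4-1 made up 1.14%, 1.35%, 1.04% and 1.16% of Leu-CAA counts in mutants 1 to 4, against 2.28% at the lowest, a median of 2.72% and 3.57% at the highest in wildtype. No mutant share reached a wildtype one. The log2 ratio of Leu-CAA-4-1 to the rest of its family was lower by −1.28 ± 0.14 (SE; limma, Benjamini-Hochberg adjusted p = 0.000125) in mutants, the 3rd lowest of 178 isodecoders. Such ratios moved widely in this tissue, and 44.4% of the 178 passed. Among other leucine isodecoders, ratios of mutants and wildtype also did not overlap for Leu-CAG-1, Leu-CAG-2, Leu-TAA-1-1, Leu-TAA-2-1, Leu-TAG-1-1, Leu-TAG-2-1 and Leu-TAG-3-1. They overlapped for Leu-CAG-3-1, Leu-CAG-4-1 and the Leu-AAG isodecoders. Ratios without overlap also occurred in many other families, such as Ala-AGC, Gly-GCC and Val-CAC. The share of all 178 isodecoders without overlap was not counted, so separation is not particular to Leu-CAA or to leucine tRNAs. Leu-CAA-2-1 held 47.7% ± 0.376 of the family in mutants (SD, n = 4) and 45.1% ± 1.21 in wildtype (SD, n = 6), with a mutant range of 47.1% to 48.0% above the wildtype range of 43.9% to 46.9%. Its log2 ratio rose by 0.15 ± 0.05 (SE; limma adjusted p = 0.0385). That call was lost when any of 8 of the 10 libraries was left out, with adjusted p-values up to 0.105, and by edgeR's diffSpliceDGE (0.06, adjusted p = 0.905), which called 15.7% of isodecoders and kept Leu-CAA-4-1 at −0.89 (adjusted p = 8.29e-07). A lower share of a member raises the summed share of the others by construction, though not the share of each. The part of this in the rise of Leu-CAA-2-1 was not tested. Leu-CAA-1-1 held 7.34% ± 0.207 in mutants and 7.26% ± 0.354 in wildtype, and Leu-CAA-3-1 held 43.8% ± 0.136 in mutants and 44.8% ± 1.03 in wildtype (SD, n = 4 and 6 for both). Neither ratio passed (limma adjusted p = 0.814 and 0.375).

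In cerebellum Leu-CAA-4-1 made up 3.29%, 3.58%, 3.49%, 2.98% and 3.004% of the family in mutants 1 to 5, against 2.94% to 3.87% in wildtype with a median of 3.58%. All mutants lay within the wildtype range, and the log2 ratio of −0.09 ± 0.09 (SE) did not pass (limma adjusted p = 0.572; 7.47% of 174 isodecoders passed). Leu-CAA-1-1 made up 11.4%, 11.6%, 10.5%, 11.1% and 8.41% in mutants 1 to 5, against 7.48% to 9.31% in wildtype with a median of 8.54%. Leu-CAA-3-1 made up 33.4%, 32.6%, 38.8%, 35.1% and 42.04% in mutants 1 to 5, against 39.9% to 42.3% in wildtype with a median of 41.1%. For both, mutants 1 to 4 lay outside the wildtype range and mutant 5 inside it. The log2 ratios were 0.36 ± 0.10 for Leu-CAA-1-1 (SE; limma adjusted p = 0.0574) and −0.29 ± 0.10 for Leu-CAA-3-1 (SE; limma adjusted p = 0.109). Without mutant 5 both passed (limma), at 0.45 (adjusted p = 0.0136) for Leu-CAA-1-1 and −0.38 (adjusted p = 0.0192) for Leu-CAA-3-1, where 20% of 175 isodecoders passed. No other of the 11 libraries, left out in turn, gave a call for either ratio. Leu-CAA-2-1 made up 46.6% to 52.3% in mutants and 45.8% to 48.8% in wildtype, with a log2 ratio of 0.16 ± 0.08 (SE; limma adjusted p = 0.246).

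**Figure D3:**
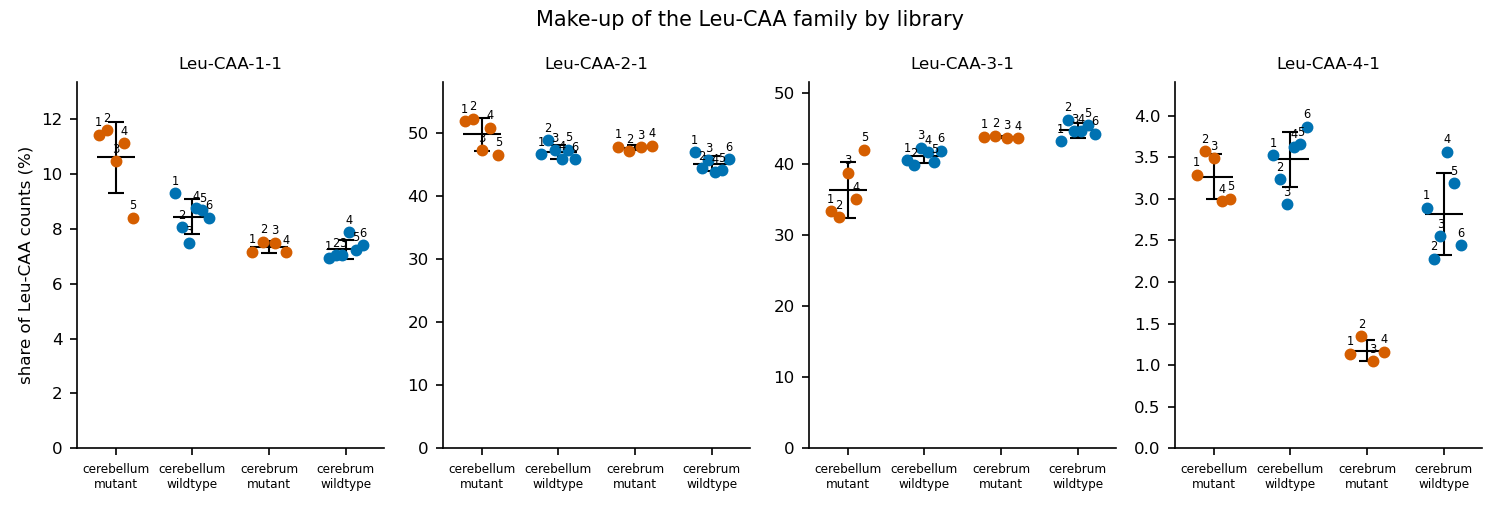
Share of all Leu-CAA counts, in percent, held by each isodecoder, 1 point per library with its replicate number; bars give the mean and SD of mutant and wildtype cerebellum and of mutant and wildtype cerebrum. Leu-CAA-4-1 holds 1.04% to 1.35% in cerebrum mutants and at least 2.28% in each library of the other groups, and cerebellum mutants 1 to 4 lie apart from wildtype for Leu-CAA-1-1 and Leu-CAA-3-1 while mutant 5 does not.

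Between tissues, all 4 isodecoders were higher in cerebellum than in cerebrum in both genotypes, except when libraries were scaled to a bacterial tRNA spike-in, where Leu-CAA-2-1 and Leu-CAA-3-1 stood below 0 and Leu-CAA-3-1 passed as lower in mutant cerebellum. These contrasts came from 1 fit to the 21 libraries of both tissues, with joint TMM scaling, so their levels differ slightly from those above and their groups are the same libraries. In wildtype, Leu-CAA-4-1 averaged 295 ± 36.3 CPM in cerebellum and 147 ± 39.7 CPM in cerebrum (SD, n = 6 each), a log2 difference of 1.01 ± 0.18 (SE; edgeR adjusted p = 1.68e-05). Leu-CAA-1-1 averaged 717 ± 77.6 CPM in wildtype cerebellum and 376 ± 62.6 CPM in wildtype cerebrum (0.93 ± 0.17 SE, edgeR adjusted p = 1.62e-05). The log2 difference was 0.78 ± 0.14 for Leu-CAA-2-1 (SE; edgeR adjusted p = 1.64e-05) and 0.59 ± 0.13 for Leu-CAA-3-1 (SE; edgeR adjusted p = 0.000162). Tissue differences were common: 71.1% of 204 tRNAs passed in wildtype, and 33.3% passed as higher in cerebellum. The Leu-CAA sum was 8982 ± 917 CPM in wildtype cerebellum and 5315 ± 549 CPM in wildtype cerebrum, higher by 0.76 ± 0.13 (SE; edgeR adjusted p = 4.58e-06), where 75% of 72 sums passed and 36.1% passed as higher.

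In mutants the tissue difference of Leu-CAA-4-1 was wider, at 320 ± 93.6 CPM in cerebellum (SD, n = 5) and 70.1 ± 9.95 CPM in cerebrum (SD, n = 4). The log2 difference of 2.19 ± 0.22 (SE; edgeR adjusted p = 5.34e-09) was the 4th highest of 204 tRNAs, of which 72.5% passed. The other isodecoders were also higher in mutant cerebellum than in mutant cerebrum, by 1.25 ± 0.20 for Leu-CAA-1-1 (SE; edgeR adjusted p = 3.3e-06), 0.76 ± 0.16 for Leu-CAA-2-1 (SE; edgeR adjusted p = 0.00017) and 0.40 ± 0.15 for Leu-CAA-3-1 (SE; edgeR adjusted p = 0.017). The call on Leu-CAA-3-1 was lost without cerebrum mutant 1 (0.30, adjusted p = 0.0575) or without cerebellum mutant 3 (0.31, adjusted p = 0.0666). With spike-in scaling, the differences of Leu-CAA-1-1 in both genotypes and of Leu-CAA-4-1 in wildtype did not pass, at 0.032 and 0.084 in wildtype, while that of Leu-CAA-4-1 in mutants passed at 1.03. Leu-CAA-3-1 passed as lower in mutant cerebellum with that scaling (−0.73, edgeR adjusted p = 0.00525), as did 69.1% of the 204 tRNAs, and Leu-CAA-2-1 did not pass in either genotype. The median of all tRNAs in that fit was −0.99 in wildtype and −1.09 in mutants, against −0.05 and −0.01 with TMM.

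The genotype effect on Leu-CAA-4-1 differed between the tissues. The effect in cerebellum minus that in cerebrum was 1.18 ± 0.28 on the log2 scale (SE; edgeR interaction contrast, adjusted p = 0.00992). Only 4.9% of the 204 tRNAs passed this test, all of them with a positive difference. It passed without each of the 21 libraries in turn, at 1.05 to 1.34, and its log2 ratio to the rest of the family gave 1.19 ± 0.16 (SE; limma adjusted p = 7.57e-05), where 19% of 174 isodecoders passed. With spike-in scaling the difference was 0.95 and did not pass (edgeR adjusted p = 0.551). Leu-CAA-1-1 (0.32 ± 0.25 SE, edgeR adjusted p = 0.606), Leu-CAA-2-1 (−0.02 ± 0.21 SE, adjusted p = 0.977), Leu-CAA-3-1 (−0.19 ± 0.20 SE, adjusted p = 0.701) and the sum (0.04 ± 0.19 SE, adjusted p = 0.968) did not pass.

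The direction of the smaller genotype effects depended on the scaling, while that of Leu-CAA-4-1 in cerebrum did not. With TMM the median log2 fold change of all tRNAs, mutant over wildtype, was −0.03 in both cerebrum and cerebellum. Scaled to the mitochondrial total it was −0.41 in cerebrum and −0.37 in cerebellum, and scaled to the bacterial glutamine tRNA spike-in it was −0.36 in cerebrum and −0.59 in cerebellum. The sources used here do not state how much spike-in each library received. Against those medians, Leu-CAA-4-1 in cerebrum stood at −1.53 with mitochondrial and −1.49 with spike-in scaling. The other isodecoders in cerebrum changed sign, to between −0.28 and −0.16 with mitochondrial scaling, and lay above the median tRNA as with TMM. Rescaling moves all tRNAs of a fit by nearly the same amount. A place above or below the median is thus kept nearly by construction. In cerebellum, Leu-CAA-1-1 stood at 0.16 with mitochondrial scaling and −0.13 with spike-in scaling, above the medians of −0.37 and −0.59. Leu-CAA-3-1 stood at −0.40 and −0.67 in the same fits, below them, and with spike-in scaling it passed (edgeR adjusted p = 0.0325), as did 83 of 202 tRNAs, or 41.1%, as lower.

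The authors' deposited tables give log2 fold changes on another scale. Their size factors, solved here from their mean levels, matched the median of ratios over 23 rows, the 22 mitochondrial tRNAs and the spike-in, to under 0.001%. The sign in the authors' deposited table of cerebrum isodecoders ran wildtype over mutant, opposite to their 3 other tables, and is turned here. Read as mutant over wildtype, the authors' deposited table gave −1.54 for Leu-CAA-4-1 in cerebrum (DESeq2 adjusted p = 1.72e-13). The same table gave −0.30 for Leu-CAA-3-1 (adjusted p = 0.022), −0.25 for Leu-CAA-1-1 (adjusted p = 0.0811) and −0.18 for Leu-CAA-2-1 (adjusted p = 0.122), and the authors' deposited anticodon table gave −0.27 for the sum (adjusted p = 0.0436). In the edgeR fit with these size factors, 55.3% of 208 tRNAs and 45.8% of 72 anticodon sums passed as lower in cerebrum mutants. In the authors' deposited tables for cerebellum none of the isodecoders passed, with 0.22 for Leu-CAA-1-1, −0.05 for Leu-CAA-2-1, −0.35 for Leu-CAA-3-1, −0.21 for Leu-CAA-4-1 and −0.14 for the sum. Under these size factors the median of all tRNAs in the edgeR fit was −0.43 in cerebrum and −0.33 in cerebellum.

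**Figure D4:**
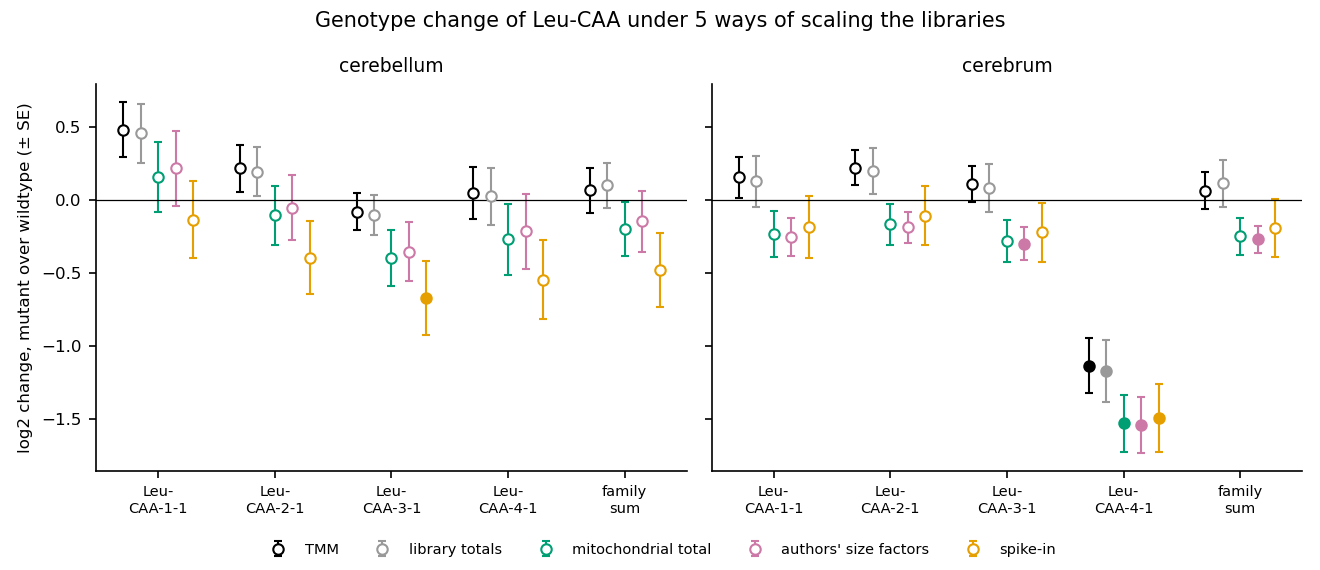
Log2 fold change, mutant over wildtype, with its SE, of each Leu-CAA isodecoder and the family sum in cerebellum (left) and cerebrum (right) under 5 ways of scaling the libraries; filled points have an adjusted p under 0.05. Leu-CAA-4-1 in cerebrum lies between −1.54 and −1.13 and is filled under each, while the other cerebrum points lie on both sides of 0.

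The other leucine tRNAs showed where Leu-CAA stood among its relatives. Of 186 nuclear tRNAs in the cerebrum fit, 14% passed, 1.08% as higher and 12.9% as lower in mutants, and of 180 in the cerebellum fit 2.78% passed. Of 12 other nuclear leucine isodecoders tested in cerebrum, 0 were higher and 2 lower in mutants, with a median log2 fold change of 0.05, beside −0.03 over all 208 tRNAs. In cerebellum 0 of 13 passed and the median was also 0.05. These counts lie near the shares of all nuclear tRNAs. As a log2 ratio to the rest of their family (limma), 4 of the 12 were higher and 5 lower in cerebrum mutants. That is 75%, beside 44.4% of all 178 isodecoders, and in cerebellum 0 of 13 passed, beside 7.47% of 174. Ratios within any family are tied to each other, and in cerebrum those of Leu-TAA-1-1 and Leu-TAA-2-1 were mirror images at −0.34 and 0.34. Whether leucine ratios moved more than others was not tested. The sums of Leu-AAG, which reads CUU and CUC codons, Leu-CAG and Leu-TAG, which read other CUN codons, and Leu-TAA, which reads UUA, did not pass between genotypes in either tissue. Their log2 fold changes in cerebrum were −0.05 for Leu-AAG, 0.15 for Leu-CAG, −0.24 for Leu-TAA and 0.06 for Leu-TAG. With the authors' size factors, 3 of these 4 passed as lower in cerebrum mutants, Leu-AAG at −0.39, Leu-TAA at −0.58 and Leu-TAG at −0.27 (edgeR adjusted p of 0.0251 or less), in the fit where 33 of 72 sums passed as lower. In wildtype, Leu-AAG (1.05 ± 0.20 SE), Leu-CAG (0.70 ± 0.13 SE) and Leu-TAG (0.71 ± 0.11 SE) were higher in cerebellum than in cerebrum, like Leu-CAA, while Leu-TAA was lower (−0.48 ± 0.11 SE; all 4 with an edgeR adjusted p of 0.000217 or less). With spike-in scaling these were 0.16, −0.20, −0.20 and −1.40 in that order, beside −0.17 for Leu-CAA, and of these 5 only Leu-TAA passed, in a fit where 68.1% of 72 sums passed as lower.

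Genes with introns also occur among the Tyr-GTA, Arg-TCT and Ile-TAT families. Of their 12 isodecoders, 0 were higher and 3 lower in cerebrum mutants (median −0.07), and 0 of 12 passed in cerebellum (median 0.01), beside 12.9% lower and 2.78% passing among all nuclear tRNAs. As a log2 ratio to the rest of their family (limma), 4 of the 12 were higher and 4 lower in cerebrum mutants, or 66.7%, beside 44.4% of all 178. In cerebellum 1 was higher and 1 lower, or 16.7%, beside 7.47% of 174. Whether these isodecoders differ from Leu-CAA or from other tRNAs was not tested. The sum of Tyr-GTA, a tyrosine tRNA, fell in cerebrum to 13248 ± 2846 CPM in mutants (SD, n = 4), against 20796 ± 3087 CPM in wildtype (SD, n = 6), and the log2 change was −0.65 ± 0.14 (SE; edgeR adjusted p = 0.00126). It gave 0.05 ± 0.11 in cerebellum (SE; edgeR adjusted p = 0.798), and this difference between tissues passed (0.74 ± 0.18 SE, edgeR adjusted p = 0.0179), 1 of 72 sums or 1.39%. It did not pass with mitochondrial scaling (0.75, edgeR adjusted p = 0.136) or spike-in scaling (0.44, edgeR adjusted p = 0.677). The sums of Arg-TCT and Ile-TAT did not pass between genotypes in either tissue with TMM, while with mitochondrial scaling Ile-TAT passed in cerebrum (−0.45, edgeR adjusted p = 0.0141) and Arg-TCT in cerebellum (−0.57, edgeR adjusted p = 0.00408). In those fits 36.1% of 72 sums in cerebrum and 15.5% of 71 in cerebellum passed as lower. Of 26 other leucine and serine isodecoders, which share the long variable arm, 0 were higher and 3 lower in cerebrum mutants, with a median of −0.10, again near the share of nuclear tRNAs.

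**Figure D5:**
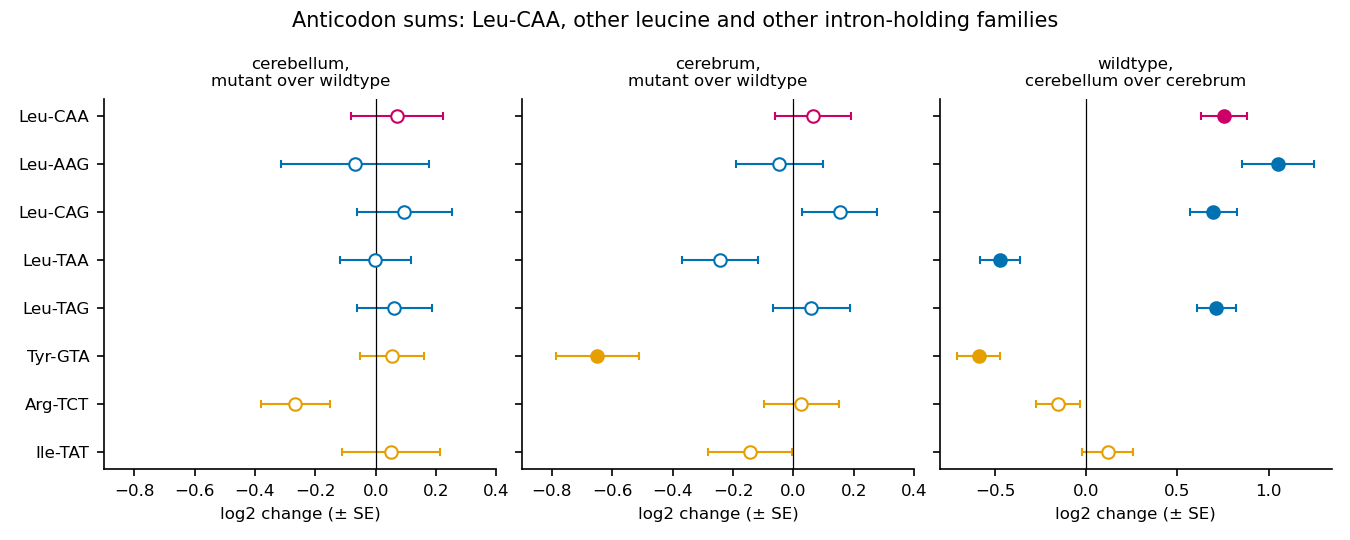
Log2 difference with its SE of the summed level of Leu-CAA, the other nuclear leucine anticodons and other families with introns, for mutant over wildtype in cerebellum and cerebrum and for cerebellum over cerebrum in wildtype; filled points have an adjusted p under 0.05. Between genotypes only Tyr-GTA in cerebrum (−0.65) is filled, and between tissues Leu-CAA (0.76) lies with Leu-AAG, Leu-CAG and Leu-TAG.

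Among 200 tRNAs outside the family, those whose level ran most like the Leu-CAA sum over the 21 libraries were the leucine tRNAs Leu-CAG-4-1 (Pearson r = 0.973 of log2 CPM) and Leu-TAG-1-1 (0.973) and the tryptophan tRNA Trp-CCA-5-1 (0.972). Within cerebrum (n = 10) these were 0.932, 0.873 and 0.859, and within cerebellum (n = 11) 0.907, 0.930 and 0.940. Leu-CAA-4-1 ran most like the valine tRNAs Val-AAC-4-1 (0.968) and Val-CAC-1-1 (0.961) and the alanine tRNA Ala-AGC-5 (0.957). Within cerebrum and within cerebellum, r was 0.929 and 0.886 for Val-AAC-4-1, 0.881 and 0.929 for Val-CAC-1-1, and 0.955 and 0.603 for Ala-AGC-5. The points share libraries, tissues and scaling, so the values describe these libraries only.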

How the data were processed

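QuantM-tRNA-seq libraries were made from Trizol-extracted total RNA of 21 samples. The submitters' processing notes name cutadapt, Bowtie2, featureCounts, DESeq2 and the mm10 build, without versions. The authors deposited raw counts per tRNA, 1 table per tissue, and tables of log2 fold changes, p-values, a test statistic (a score) and a mean signal (counts over size factors), per the file headers. No column was left unmapped (0).

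Tests used edgeR 4.0.16 and limma 3.58.1 in R 4.3.3: TMM, filterByExpr with a minimum count of 10, robust two-sided quasi-likelihood F tests, and Benjamini-Hochberg adjustment over all features at 0.05. SE is the fold change over the root of F. limma was fitted to log2((count + 0.5)/(rest of the anticodon family + 0.5)) over nuclear families with at least 2 measured rows. Tissues were compared over 204 tRNAs in both tables. The spike-in, 0.222% to 0.374% of counts in cerebrum libraries and 0.401% to 1.08% in cerebellum libraries, stayed out of library sizes and tests. Alternatives included DESeq2 1.42.0, other scalings and filters, sex, depth class and each library left out. The steps were tested on simulated data with as many tRNAs raised as lowered, so a fall of most tRNAs was not simulated. No replicate libraries agreed within sampling noise.

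Named were all Leu-CAA rows and their sum, the sums of other leucine and intron-holding families, and the 3 tRNAs most like the sum and Leu-CAA-4-1. Members and lists were chosen with earlier results of these data known. Sequences of these tRNAs were not used here.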

Additional observations from a re-analysis of the deposited data

Results flagged for a closer look

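Levels of the 4 isodecoders and of their sum, and the isodecoders' shares, were checked by Dixon's test in each group. Of these 36 sets of libraries, 5 held a library far from the others, where chance alone gives about 1 in 20 per set. The sets share libraries and counts, and the sum is made of the isodecoders. They are thus not separate checks, and 5 of 36 cannot be set against that rate. In cerebellum mutant 5 the Leu-CAA sum was 5827 CPM and Leu-CAA-1-1 was 532 CPM, both far below mutants 1 to 4. In cerebellum wildtype 4 the sum was 11658 CPM and Leu-CAA-1-1 was 963 CPM, both above the other wildtype libraries. In cerebrum mutant 1, Leu-CAA-1-1 was 309 CPM, below the other mutants.

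The genotype effect on Leu-CAA-4-1 differed between tissues, by 1.18 on the TMM-scaled level (edgeR adjusted p = 0.00992) and by 1.19 as a ratio to the rest of the family (limma adjusted p = 7.57e-05).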

How the results depend on the processing

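Leu-CAA-4-1 in cerebrum kept its fall and its call under all 12 other settings (−1.54 to −1.07) and without each library. Its difference between tissues passed under 11 of 12 settings, the exception being spike-in scaling (0.95). The log2 differences that changed sign and the main changes of call follow, and their cause was not tested. In cerebrum, mitochondrial scaling gave −0.23 for Leu-CAA-1-1, −0.16 for Leu-CAA-2-1, −0.28 for Leu-CAA-3-1 and −0.25 for the sum. In that order, spike-in scaling gave −0.18, −0.11, −0.22 and −0.19, and the authors' size factors gave −0.25, −0.18, −0.30 (adjusted p = 0.0364) and −0.27 (adjusted p = 0.0322). The cerebrum sum was −0.014 with RLE and with DESeq2, −0.0048 with a mean count of at least 50, and −0.0038 to 0.16 without a library. In cerebellum, mitochondrial scaling gave −0.10 for Leu-CAA-2-1, −0.27 for Leu-CAA-4-1 and −0.20 for the sum. The authors' size factors gave −0.049, −0.21 and −0.14 for these, and spike-in scaling −0.39, −0.54 and −0.48, with −0.13 for Leu-CAA-1-1 and a call of −0.67 for Leu-CAA-3-1 (adjusted p = 0.0325). Leu-CAA-4-1 there was −0.021 with limma-voom, −0.039 in deep libraries and −0.046 to 0.23 without a library. Without a library Leu-CAA-3-1 ranged over −0.15 to 0.044 and the sum over −0.032 to 0.23. Without mutants 1 and 5, Leu-CAA-3-1 was 0.076. Calls were gained there for Leu-CAA-1-1 (0.68, edgeR adjusted p = 0.00403, and as a ratio 0.43, limma adjusted p = 0.0417) and Leu-CAA-2-1 (0.39, edgeR adjusted p = 0.0262). The share of all tRNAs passing in those fits was not counted. Leaving out mutant 5 alone raised it from 2.48% to 16.2% of tRNAs, and from 7.47% to 20% of isodecoder ratios.

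Between tissues, spike-in scaling gave −0.11 for Leu-CAA-2-1, −0.28 for Leu-CAA-3-1 and −0.17 for the sum in wildtype, and −0.40, −0.73 (adjusted p = 0.00525) and −0.46 in mutants. As a log2 ratio to the family, Leu-CAA-3-1 passed as lower, at −0.22 in wildtype (limma adjusted p = 0.0196) and −0.45 in mutants (limma adjusted p = 0.000254). Leu-CAA-2-1 did not pass, at 0.11 (limma adjusted p = 0.14) and 0.12 (limma adjusted p = 0.147), and 2 of the 4 isodecoders passed as higher in each genotype. Such calls were common: of 174 isodecoders, 63.8% passed in wildtype, 31% as lower, and 60.3% in mutants, 25.3% as lower. The genotype effect on Leu-CAA-2-1 in cerebellum minus that in cerebrum was 0.062 with mitochondrial scaling, 0.12 without cerebellum mutants 1 and 5, 0.015 as a ratio, and −0.12 to 0.14 without a library. That of the sum was −0.29 with spike-in scaling, −0.015 with library totals, −0.0074 with limma-voom, and −0.064 to 0.18 without a library. The authors' size factors, the depth classes, the fits without cerebellum mutants 1 and 5 and the ratios between tissues were chosen after seeing the data.

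Same-numbered libraries of different groups did not all deviate together: over 4 comparisons of groups their correlations ran from −0.27 to 0.58. Sex was the same in 4 of 4 mutant and 6 of 6 wildtype pairs of cerebellum and cerebrum, and in 1 of 4 cerebrum and 2 of 5 cerebellum pairs of genotypes. The labels do not say that such tissues share an animal, and tests between tissues took libraries as independent. With the replicate block across tissues, the difference for Leu-CAA-4-1 was 1.31 (adjusted p = 3.16e-05) and no tissue call was lost. With the replicate block, 65 tRNAs passed in cerebrum, against 41 without it, and 5 passed in cerebellum with and without it. Leu-CAA-4-1 in cerebrum was −1.12 with the replicate block, and the difference between tissues for Leu-CAA-2-1 was 0.14. The ratio of Leu-CAA-2-1 in cerebrum did not pass with it (0.14, adjusted p = 0.197). Leu-CAA-4-1 had the fewest counts of the 4, at 312 to 2172 per library.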
